A study of Mus musculus with 2 samples.

Results

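Neutrophils of the postischemic mouse kidney were examined in the single-cell RNA sequencing data of a control and a JPI-289 treated kidney. A cell barcode was taken as a neutrophil when it held at least 1000 UMIs (unique molecular identifiers, each standing for 1 captured RNA molecule) and at most 50% mitochondrial UMIs. In addition, S100a8, S100a9 and Retnlg together had to make up at least 2% of its UMIs, and C1qa, C1qb and C1qc together at most 1 UMI. This rule gave 696 neutrophils among 7077 barcodes that met the depth and mitochondrial limits, with 156 of 3093 in the control against 540 of 3984 in the JPI-289 library. The cells were chosen by these values, so the levels of S100a8, S100a9, Retnlg and the C1q genes are descriptions.

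Both kidneys came from male C57BL/6 mice, 9 weeks old and without any genetic change named in the labels, and both underwent bilateral renal ischemia-reperfusion injury (IRI). The control mouse received saline, and the other mouse 100 mg/kg JPI-289, an inhibitor of poly (ADP-ribose) polymerase (PARP), each into the peritoneal cavity just before blood flow was restored. The kidneys were taken 24 h after surgery and made into cell suspensions for 5′ droplet libraries. There was 1 kidney library per treatment, so the cells of a library share 1 mouse, no difference between the treatments could be tested, and intervals cover counting error only. Treatment, mouse and preparation cannot be told apart. Where a pair of values is given, the control stands first and the JPI-289 library after it.

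Neutrophils are short-lived white blood cells made in the bone marrow, and they are among the first blood cells to enter tissue after ischemia. They mature in steps, first filling granules with antimicrobial proteins and then shutting down most of those granule genes before they enter blood. Receptors for chemokines, complement fragments and bacterial peptides guide them into tissue, where they release chemokines and interleukin-1 and can damage tubules and vessels. In the kidney after IRI they gather mainly in the outer medulla, around tubules and small vessels.

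The median neutrophil had 2138 UMIs and 877 genes in the control and 2280 UMIs and 963 genes in the JPI-289 library, with a median of 1.91% and 1.74% mitochondrial UMIs. Summed over cells, they gave 402700 UMIs in the control against 1502887 UMIs in the JPI-289 library, out of 38328760 and 35548396 UMIs per library, so each control value rests on fewer counts. The libraries shared 14 cell barcodes, of which 0 were neutrophils in both and 7 were a neutrophil in one and another cell in the other. The 3 rule genes made up a median of 10.4% (lowest 2.06%, highest 34.0%) of UMIs in control and 9.36% (lowest 2.01%, highest 48.5%) in JPI-289 neutrophils. All 156 control and 537 JPI-289 neutrophils had no C1q UMI, and 3 JPI-289 neutrophils had 1. S100a8 stood at 35977 and 38262 CPM (UMIs per 1000000 UMIs of the neutrophils), S100a9 at 51532 and 50709.7 CPM and Retnlg, a resistin-like secreted protein, at 41125 and 29364 CPM. S100a8 and S100a9 encode calprotectin, the main protein of the neutrophil cytosol.

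Cells close to the limit of the rule were few. Between 2% and 3% of UMIs lay 11 control and 31 JPI-289 neutrophils, and between 1% and 2% lay 19 and 33 cells that the rule left out. Just inside the limit, 11 neutrophil markers that the rule did not use summed to 15192 CPM in the control against 11723 CPM in the JPI-289 library. Just outside it they summed to 7746 and 11353 CPM, and monocyte markers to 4681 and 345 CPM against 113 and 276 CPM inside. The control cells just outside thus carried monocyte RNA, whereas the JPI-289 cells on either side of the limit were much alike in both marker sums. Barcodes of 300 to under 1000 UMIs that met the rest of the rule numbered 21 and 97, and those above 50% mitochondrial UMIs numbered 3 and 1.

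The name neutrophil was checked against genes that the rule did not use. Il1r2, the decoy receptor for interleukin-1, stood at 4544 and 5077 CPM, and G0s2, an inhibitor of lipid breakdown, at 5721 and 3675 CPM. Mmp9, a matrix-degrading protease of gelatinase granules, was at 1122 and 1563 CPM, and Hdc, the enzyme that makes histamine, at 1139.8 and 1978 CPM. Cxcr2, the receptor for the CXC chemokines that attract neutrophils, was at 834 and 604 CPM. All 11 of these other markers were detected in both libraries, including Ly6g, the surface antigen used to sort mouse neutrophils, at 21 and 83 UMIs. Neutrophils thus held the genes of this cell type beyond those that chose them. In proximal tubule cells Il1r2 was at 0.999 and 13.8 CPM, and Cxcr2 at 0 and 1.57 CPM.

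**Figure D1:**
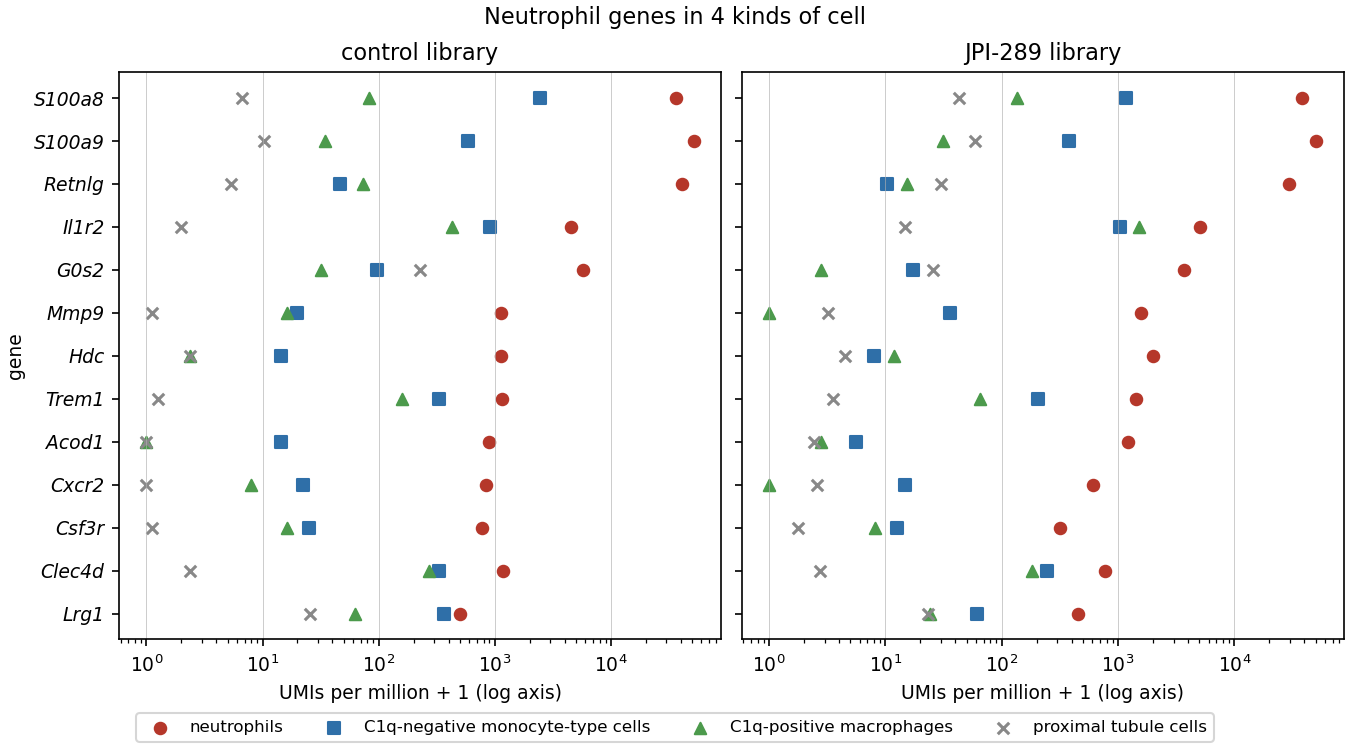
Level of 13 neutrophil genes (CPM + 1, log axis) in neutrophils, C1q-negative monocyte-type cells, C1q-positive macrophages and proximal tubule cells of the control (left) and the JPI-289 library (right); S100a8, S100a9 and Retnlg chose the neutrophils. Neutrophils hold the highest level of each gene in both libraries, for example 1139.8 and 1978 CPM for Hdc against 13.4 and 6.92 CPM in monocyte-type cells.

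C1q-positive macrophages (at least 5 C1q UMIs), C1q-negative monocyte-type cells (at least 3 UMIs of 6 monocyte genes and 1 of Ptprc), proximal tubule cells and red blood cells were taken from the same libraries by fixed limits for comparison. Defining markers of other blood cells were nearly absent from the neutrophils. Markers of B cells summed to 0 and 1 UMIs, of basophils and mast cells to 0 and 0 UMIs, of T and NK cells to 2 and 13 UMIs, and of platelets to 1 and 9 UMIs. Epx, Prg2 and Ccr3, which mark eosinophils, were at 0 in both libraries, so the 3 and 14 UMIs of Siglecf did not come with eosinophil genes. The 5 monocyte markers, with Ly6c2 the most abundant, summed to 400 and 193 CPM, against 4487 and 2389 CPM in C1q-negative monocyte-type cells. The 7 macrophage markers, led by Apoe in the control and by Cd81 in the JPI-289 library, summed to 243 and 142 CPM. In macrophages they summed to 9576 and 5236 CPM. Proximal tubule markers, led by Gpx3, summed to 4085 and 2416 CPM, and from them free RNA in the droplets was estimated at 15.4% and 15.2% of neutrophil UMIs. The 4 red blood cell markers summed to 181 and 163 CPM. The endothelial markers stood apart, at 397 CPM in the control against 11.98 CPM in the JPI-289 library, because a single control cell held 99 of the 102 Plvap UMIs. Apart from leaving out such cells and subtracting free RNA, the part of these markers in the gene results was not tested.

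Neutrophils were a larger share of the JPI-289 library. They made up 5.04% (95% Clopper-Pearson interval 4.30 to 5.87%) of cells in the control kidney, against 13.6% (12.5 to 14.7%) in the treated kidney. Proximal tubule cells made up 43.0% and 19.3% of the same cells, which moves every other share. With tubule cells left out of the total, neutrophils were 8.84% (7.56 to 10.3%) and 16.8% (15.5 to 18.1%). There were 1.43 neutrophils per C1q-positive macrophage in the control against 4.12 in the JPI-289 library, and 3.80 and 9 per C1q-negative monocyte-type cell. Per red blood cell there were 2.74 and 5.68. Each of these ratios was thus higher in the JPI-289 library, from 1 kidney each.

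To compare the neutrophils themselves, their UMIs were summed in each library and the JPI-289 level was set against the control level as a log2 ratio, with its exact 95% binomial interval beside it. A ratio of 1 or -1 on this scale is a 2-fold difference, and genes past it were counted without any test. In parentheses, a log2 ratio is followed by the bounds of its interval. Of 3764 genes with at least 50 UMIs, 403 (10.7%) were at least 2-fold higher and 233 (6.19%) at least 2-fold lower, and the median ratio was 0.18. When all ratios were centred on that median, 263 genes were at least 2-fold higher and 332 lower, so that 44.2% rather than 63.4% of the genes past 2-fold were higher. Of the 26 gene lists with a measured member, 25 had a median below that of all genes, and 23 a median below 0. Beside the 10.7% of all genes, 4 of 9 secondary granule genes were at least 2-fold higher. Beside the 6.19% of all genes, 2 of 4 inflammasome, 4 of 11 interferon-stimulated, 3 of 9 chemokine, 2 of 6 PARP and NAD, 3 of 10 hypoxia-inducible and 4 of 16 glycolysis genes were at least 2-fold lower. The lists are small, and were described by these counts without a test. Counts of list members given below are to be read beside these shares of all genes past 2-fold, and beside 60.8% of all genes higher.

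**Figure D2:**
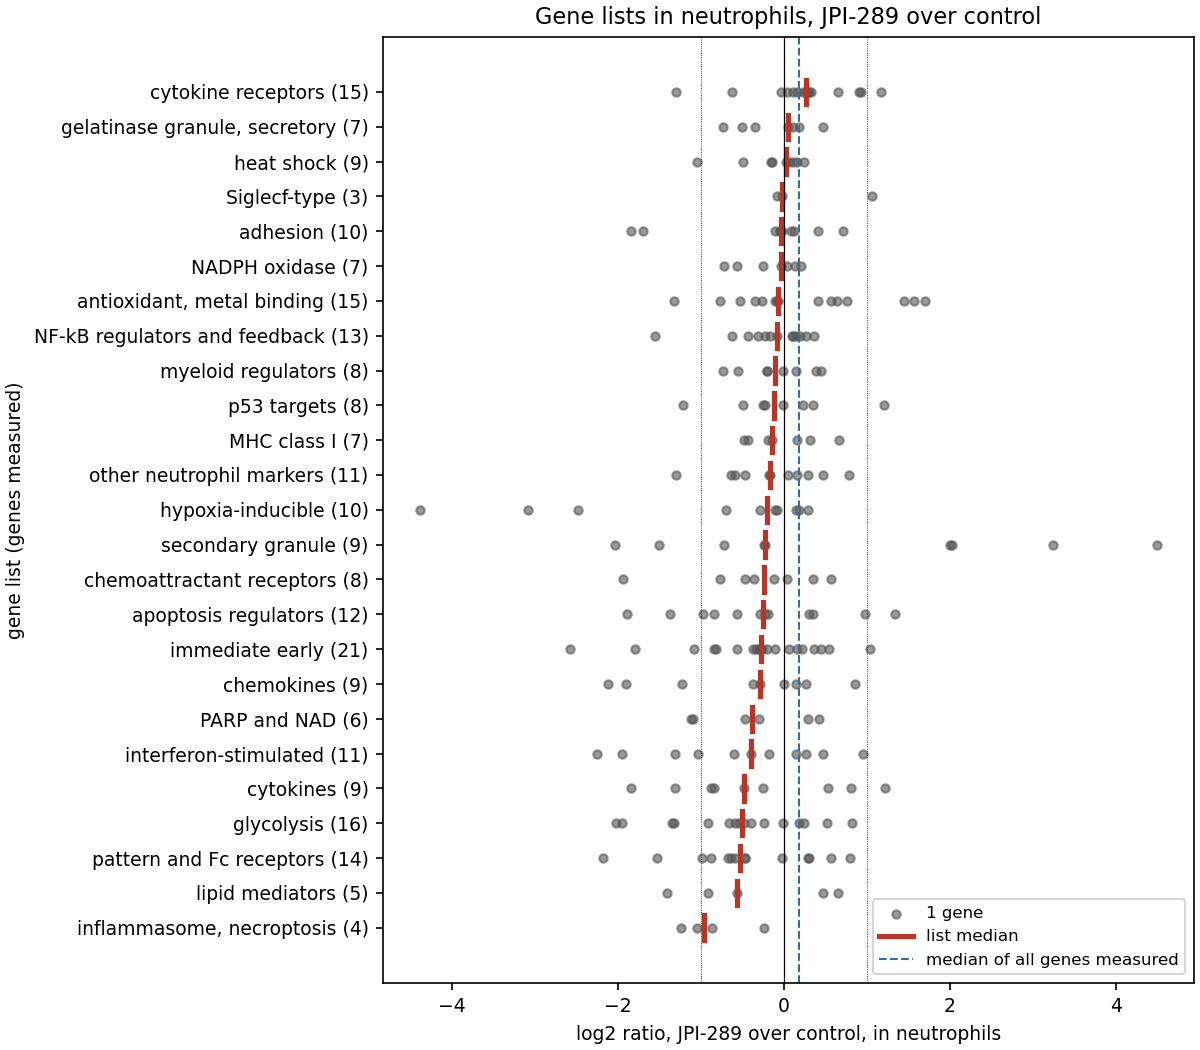
Log2 ratio of JPI-289 over control in neutrophils for each measured gene (grey points) of 25 lists with at least 3 measured genes, with the list median (red bar) and the median of all 3764 genes (dashed line, 0.18); dotted lines mark a 2-fold difference. Cytokine receptors have the highest list median (0.27) and inflammasome and necroptosis genes the lowest (-0.95), while secondary granule genes lie on both sides.

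Granule genes split in opposite directions. Ngp, which encodes neutrophilic granule protein of secondary granules and lies at chr9:110419747-110423012 (GRCm38), held 456 UMIs (1132 CPM) in the control against 6958 UMIs (4629.8 CPM) in the JPI-289 library, at a log2 ratio of 2.03 (1.89 to 2.17). Camp, the cathelicidin peptide precursor, held 1 and 126 UMIs (log2 4.50, 2.57 to 10.39), and Ltf, lactoferrin, 2 and 88 UMIs (log2 3.25, 1.66 to 6.63), so their controls rest on almost no counts. Their JPI-289 UMIs also lay in few cells, with 46.0% of Camp and 53.4% of Ltf UMIs in 5 cells, and of the control Ngp UMIs 44.7% did. Without the 5% of cells with most UMIs the ratio of Camp was 3.73 and that of Ltf 2.09, while that of Ngp was 2.16. Itgb2l, a beta integrin chain, was also higher, at 4 and 67 UMIs (log2 2.01, 0.74 to 4.08). These 4 were the only higher members of the 9 secondary granule genes, and the other 5 were lower.

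Other genes of the same granules were lower or near equal. Chil3, a chitinase-like lectin encoded at chr3:106147554-106167564, stood at 5034 and 1229.6 CPM, a log2 ratio of -2.03 (-2.13 to -1.94), and Olfm4, olfactomedin 4, at 28 and 37 UMIs (log2 -1.50, -2.25 to -0.74, but -0.89 with the rule genes at 5% of UMIs or more). The control Olfm4 UMIs lay in 6 cells, with 92.9% of them in 5, and 54.1% of the JPI-289 UMIs lay in 5 cells. Mmp8, neutrophil collagenase, was at 1001 and 609 CPM (log2 -0.72, -0.89 to -0.54). Lcn2, which encodes the siderophore-binding protein NGAL, a marker of tubular injury, was at 6533 and 5543 CPM (log2 -0.24, -0.30 to -0.17), and Wfdc21 at 1830.2 and 1575 CPM (log2 -0.22, -0.34 to -0.10). Thus Ngp and Chil3, both secondary granule genes, differed about equally far in opposite directions.

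In cells drawn down to 1000 UMIs each, an Ngp UMI was seen in 23.7% (17.3 to 31.2%) of control neutrophils, against 45.9% (41.7 to 50.2%) in the JPI-289 library, and before drawing in 29.5% and 54.1%. Red blood cells, which should lack it, showed an Ngp UMI in 0% and 1.05%. The control Ngp UMIs lay in 46 cells, with 44.7% of them in 5 cells, and the JPI-289 UMIs in 292 cells, with 15.0% in 5 cells. On the same footing 82.7% of control neutrophils had a Chil3 UMI, against 47.0% in the JPI-289 library. More JPI-289 cells had Ngp and fewer had Chil3.

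Of the 7 gelatinase granule and secretory vesicle genes, 4 were higher and 3 lower, none past 2-fold. Mmp9 had a log2 ratio of 0.48 (0.33 to 0.63), Cd177, a surface protein of neutrophils, 0.19 (-0.07 to 0.46), and Adam8, a sheddase, 0.05 (-0.17 to 0.28). On the lower side were Slc11a1, a phagosomal metal transporter (log2 -0.72, -1.05 to -0.38), Pglyrp1, a peptidoglycan recognition protein (log2 -0.50, -0.64 to -0.35), and Hp, haptoglobin (log2 -0.34, -0.47 to -0.21). Primary granule genes (Mpo, Elane, Prtn3, Ctsg and Ms4a3), which mark the earliest marrow stages, summed to 0 UMIs in the control against 18 UMIs (11.98 CPM) in the JPI-289 library. The control value allows up to 3 counts or 7.45 CPM. Prtn3 alone gave 15 of the JPI-289 UMIs, with 73.3% of these in 5 cells. Proliferation and precursor genes held 16 and 55 UMIs (39.7 and 36.6 CPM) for 5 genes. Most of them came from Cebpe, a granule gene regulator (log2 -0.55, -1.41 to 0.44).

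The 10 chemokine genes together held 38396 CPM in the control against 26003 CPM in the JPI-289 library. Cxcl2, a CXC chemokine that attracts further neutrophils, was at 23486 and 19282 CPM (log2 -0.28, -0.32 to -0.25), and was detected in 97.4% and 95.4% of cells drawn to 1000 UMIs. Il1b, interleukin-1 beta, was at 8073 and 5805 CPM (log2 -0.48, -0.53 to -0.42). Cxcl3, a close relative of Cxcl2, was at 8277 and 3531 CPM, a log2 ratio of -1.23 (-1.29 to -1.17). So Cxcl2 and Il1b were somewhat lower and Cxcl3 more than 2-fold lower in the JPI-289 library.

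Among the other chemokines, Ccl6, a CC chemokine of myeloid cells, was lower, at 4169 and 959 CPM (log2 -2.12, -2.22 to -2.02), as was Ccl9, with 58 and 58 UMIs (log2 -1.90, -2.45 to -1.35). Without cells that held UMIs of T, NK, B cell or monocyte markers the ratio of Ccl9 was -0.53, short of 2-fold. Ccl4, which attracts monocytes and T cells, was at 1321 and 1326 CPM (log2 0.00, -0.13 to 0.15) and Ccl3, its neighbour in function, at 847 and 657 CPM (log2 -0.37, -0.54 to -0.18). In all, 4 of 9 chemokines were higher and 5 lower, with 3 past 2-fold, all lower. The control Ccl6 UMIs were spread over 128 cells, with 24.8% in 5 of them.

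Cytokines and their antagonists lay on both sides. Tnf, tumour necrosis factor, was at 661 and 1160.4 CPM (log2 0.81, 0.63 to 1.00), and Csf1, the macrophage growth factor, at 52 and 456 UMIs (log2 1.22, 0.82 to 1.68), past 2-fold. Il1rn, the secreted antagonist of the interleukin-1 receptor, was at 603 and 244 CPM (log2 -1.31, -1.54 to -1.07), and Tgfb1, transforming growth factor beta 1, at 41 and 43 UMIs (log2 -1.83, -2.48 to -1.18). Osm, oncostatin M, was at 256 and 144 CPM (log2 -0.84, -1.18 to -0.48). Of 9 measured cytokine genes, 3 were higher and 6 lower, beside 60.8% of all genes higher.

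**Figure D3:**
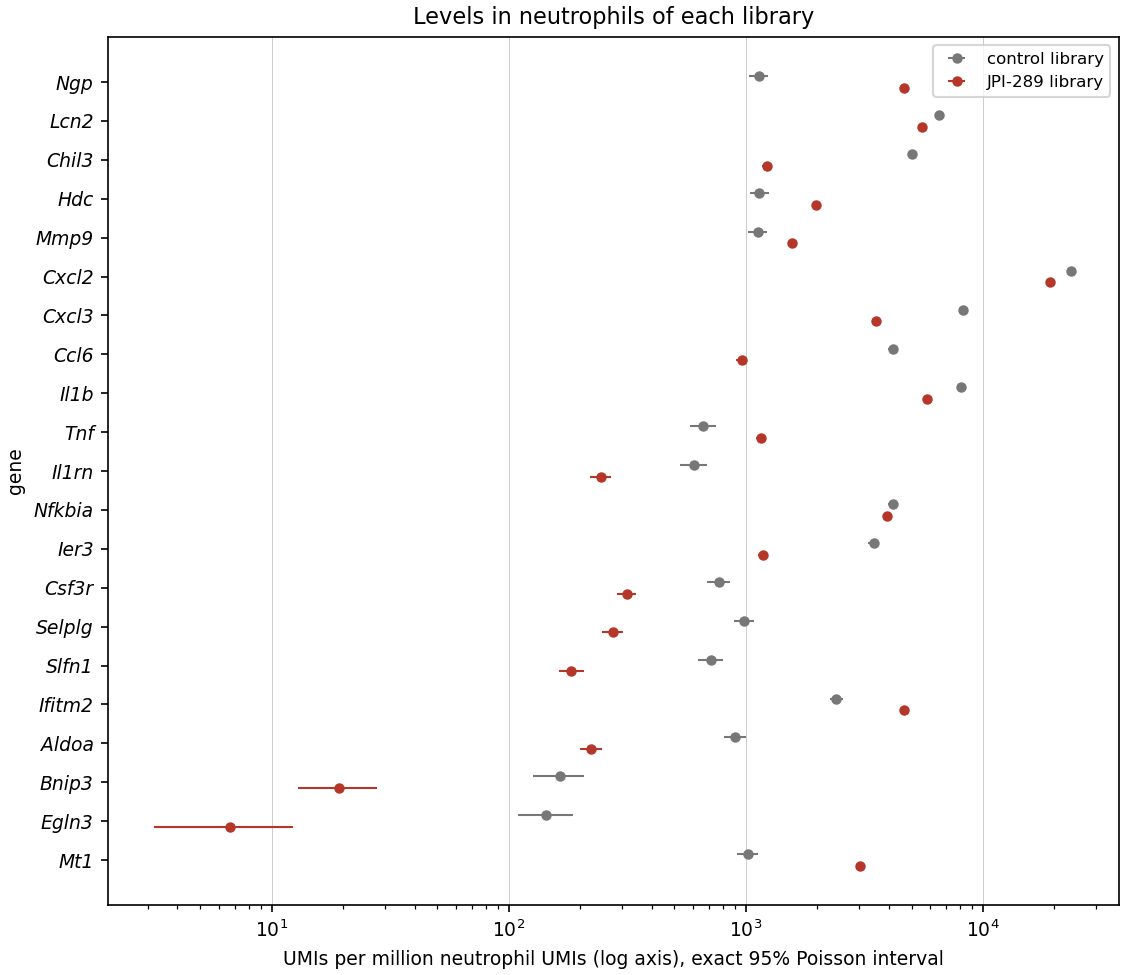
Level of 21 genes in neutrophils (CPM, log axis) with exact 95% Poisson intervals, for the control library (grey, 156 neutrophils) and the JPI-289 library (red, 540 neutrophils). Ngp, Hdc, Mmp9, Tnf, Ifitm2 and Mt1 are higher in the JPI-289 library and the other 15 genes lower, with the widest gap at Egln3 (144 and 6.65 CPM).

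NF-kB is the transcription factor that switches on many of these genes, and it also switches on its own inhibitors. Nfkbia, the inhibitor IkB alpha, was at 4182 and 3949 CPM (log2 -0.08, -0.16 to 0.00), Nfkbiz, a nuclear cofactor, at 802 and 863 CPM (log2 0.10, -0.07 to 0.29), and Tnfaip3, the ubiquitin-editing enzyme A20, at 477 and 425 CPM (log2 -0.17, -0.40 to 0.08). Of 13 genes of this list, 6 were higher and 7 lower, and the 1 past 2-fold was Ier3, an immediate early regulator of survival, at 3459 and 1181 CPM (log2 -1.55, -1.65 to -1.45).

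The 250 bases before the start of Cxcl2, Cxcl3 and Nfkbia are given because these genes carry short NF-kB type motifs there and had many UMIs. Sequences are from RefSeq (build GRCm38.p6), 5′ to 3′ on the strand of the gene, from chr5:90903649-90903898 (plus strand), chr5:90785851-90786100 (plus strand) and chr12:55492648-55492897 (minus strand). Capitals mark the letters GGGNNTTTC on either strand.
Cxcl2: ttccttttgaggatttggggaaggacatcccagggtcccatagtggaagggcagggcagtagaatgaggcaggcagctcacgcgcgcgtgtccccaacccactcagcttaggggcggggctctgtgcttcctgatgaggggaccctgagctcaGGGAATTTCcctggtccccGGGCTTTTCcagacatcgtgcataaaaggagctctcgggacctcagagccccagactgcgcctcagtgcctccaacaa
Cxcl3: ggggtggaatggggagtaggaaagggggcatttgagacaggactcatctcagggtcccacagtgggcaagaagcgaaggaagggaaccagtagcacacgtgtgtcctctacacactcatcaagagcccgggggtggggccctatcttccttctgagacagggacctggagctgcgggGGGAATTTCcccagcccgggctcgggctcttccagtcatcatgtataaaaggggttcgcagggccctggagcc
Nfkbia: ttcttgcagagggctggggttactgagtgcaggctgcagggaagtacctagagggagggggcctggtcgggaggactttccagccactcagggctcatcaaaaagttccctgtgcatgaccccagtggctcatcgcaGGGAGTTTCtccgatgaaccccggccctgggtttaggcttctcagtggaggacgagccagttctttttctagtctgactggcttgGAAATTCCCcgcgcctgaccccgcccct
The motif began 97 and 78 bases before the start of Cxcl2, 73 before that of Cxcl3, and 113 and 28 before that of Nfkbia. It was found in 3.79% of 27025 promoter windows of this length, in 4 of 7 measured chemokines with an entry (Cxcl1, Cxcl2, Cxcl3 and Ccl9), in 3 of 11 NF-kB regulators and in 1 of 7 cytokines. A match is a description of the letters and not a bound site. The genes with a match lay on both sides, from Ccl9 (log2 -1.90, -2.45 to -1.35) and Cxcl3 (log2 -1.23, -1.29 to -1.17) through Cxcl2, Nfkbia, Nfkb2 (log2 0.11, -0.64 to 1.00), Rel (log2 0.27, -0.28 to 0.90) and Cxcl1 (log2 0.27, -0.25 to 0.86) to Csf1 (log2 1.22, 0.82 to 1.68). Of the 35 control Cxcl1 UMIs 94.3% lay in 5 cells, and over the settings tried the ratio of Cxcl1 ran from -0.17 to 1.34.

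Among cytokine receptors, 12 of 15 were higher and 3 lower, beside 60.8% of all genes higher. Their median was 0.27 against 0.18 for all genes, and 9 of 15 lay above that median, so the list lay close to the background. Ifnar2, a chain of the type I interferon receptor, was at 134 and 304 CPM (log2 1.17, 0.77 to 1.62, and 0.99 when centred), Il17ra, an interleukin-17 receptor chain, at 261 and 492 CPM (log2 0.91, 0.62 to 1.22), and Il4ra, the interleukin-4 receptor alpha chain, at 147 and 281 CPM (log2 0.93, 0.54 to 1.36). Csf3r, the receptor for the neutrophil growth factor G-CSF, was the exception past 2-fold, at 769.8 and 315 CPM (log2 -1.29, -1.50 to -1.08), with 55.8% and 28.9% of drawn cells positive.

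Receptors for chemoattractants were within 2-fold, with 1 exception of 8. Cxcr2 had a log2 ratio of -0.47 (-0.65 to -0.28), C5ar1, the receptor for complement C5a, 0.05 (-0.10 to 0.20), and Fpr1, a formyl peptide receptor, -0.11 (-0.31 to 0.10). Cxcr4, which holds neutrophils in marrow, was at 43 and 240 UMIs (log2 0.57, 0.11 to 1.08), and Ltb4r1, the leukotriene B4 receptor, at 81 and 79 UMIs (log2 -1.94, -2.40 to -1.47). Ltb4r1 was that exception.

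Adhesion genes lay on both sides, with the measured integrin chains of this list within 2-fold. Selplg, the ligand that binds P-selectin as neutrophils roll on endothelium, was at 983 and 274 CPM (log2 -1.84, -2.05 to -1.64), past 2-fold. It was detected in 55.1% and 22.0% of drawn cells. Itgam, the alpha chain of Mac-1, had a log2 ratio of 0.13 (-0.06 to 0.34), its beta chain Itgb2 0.42 (0.15 to 0.70), and Cd44, the hyaluronan receptor, 0.09 (-0.12 to 0.30). Of 10 adhesion genes, 4 were higher and 6 lower, beside 60.8% of all genes higher.

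Sensors of microbes and antibodies were lower in 10 of 14 cases, with a median of -0.53, beside 60.8% of all genes higher and a median of 0.18. Cd14, the coreceptor for lipopolysaccharide, was at 7139 and 5193 CPM (log2 -0.46, -0.52 to -0.40), and Tlr4, its signalling partner, at 151 and 77.2 CPM (log2 -0.98, -1.43 to -0.50). The inhibitory Fc receptor gene Fcgr2b (log2 -2.17, -2.71 to -1.65) and the activating Fcgr4 (log2 -1.53, -2.03 to -1.02) were past 2-fold, with 69 and 57 UMIs of the former and 61 and 79 UMIs of the latter. The control Fcgr2b UMIs lay to 49.3% in 5 cells. These 2 of 14 genes stand beside 6.19% of all genes at least 2-fold lower. Clec4e, a receptor for mycobacterial glycolipid (log2 0.57, 0.41 to 0.73), and Myd88, the adaptor of Toll-like receptors (log2 0.80, 0.33 to 1.33), lay on the other side. A further listed gene was not analysed here.

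Hypoxia-inducible and glycolysis genes held some of the largest differences. Egln3, an oxygen-sensing prolyl hydroxylase that hypoxia-inducible factor (HIF) switches on, was at 58 UMIs (144 CPM) in the control against 10 UMIs (6.65 CPM) in the JPI-289 library, at a log2 ratio of -4.38 (-5.57 to -3.46). Bnip3, a mitophagy receptor under the same control, was at 66 and 29 UMIs (log2 -3.07, -3.77 to -2.44), and Ero1l, an oxidase of the endoplasmic reticulum, at 30 and 20 UMIs (log2 -2.47, -3.38 to -1.62). The control UMIs lay in 32 cells for Egln3 and 32 for Bnip3, and 10 and 27 JPI-289 cells held the rest. In the control, 31.0% of the Egln3 and 47.0% of the Bnip3 UMIs lay in 5 cells. The other 7 measured members were within 2-fold, among them Hif1a itself (log2 0.19, -0.18 to 0.59), Bnip3l (log2 0.30, -0.02 to 0.64), a relative of Bnip3, and Vegfa (log2 -0.08, -0.78 to 0.74), the vascular growth factor.

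Of 16 glycolysis genes, 12 were lower and 4 higher, with a median of -0.50, beside 60.8% of all genes higher. Aldoa, an aldolase, was at 901 and 222 CPM (log2 -2.02, -2.24 to -1.80), Tpi1, triosephosphate isomerase, at 221 and 57.2 CPM (log2 -1.95, -2.39 to -1.51), and Pgk1, phosphoglycerate kinase, at 258 and 104 CPM (log2 -1.32, -1.68 to -0.94). The most abundant member, Gapdh, was at 4259 and 3073 CPM (log2 -0.47, -0.55 to -0.39), and Pkm, pyruvate kinase, at 1204 and 1201 CPM (log2 -0.01, -0.15 to 0.14). On the higher side stood Slc2a3, the glucose transporter GLUT3 (log2 0.82, 0.24 to 1.50), and Gpi1, glucose-6-phosphate isomerase (log2 0.52, 0.34 to 0.71). Slc2a1, another glucose transporter gene, was instead past 2-fold lower, at 52 and 77 UMIs (log2 -1.34, -1.86 to -0.80). Aldoa is also made by the tubule, where it was detected in 52.0% and 55.3% of drawn cells. With free RNA subtracted the ratio of Aldoa was -3.00, that of Tpi1 -3.00 and that of Pgk1 -1.74.

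The windows before Egln3 (chr12:54203875-54204124, minus strand) and Bnip3 (chr7:138909507-138909756, minus strand), the members with the most negative ratios, are shown with the core of the HIF motif, ACGTG on either strand, in capitals.
Egln3: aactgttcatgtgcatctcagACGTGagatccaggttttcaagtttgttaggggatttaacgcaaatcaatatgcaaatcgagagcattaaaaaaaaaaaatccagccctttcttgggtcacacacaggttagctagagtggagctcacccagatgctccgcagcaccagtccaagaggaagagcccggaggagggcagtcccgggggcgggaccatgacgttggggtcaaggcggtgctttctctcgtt
Bnip3: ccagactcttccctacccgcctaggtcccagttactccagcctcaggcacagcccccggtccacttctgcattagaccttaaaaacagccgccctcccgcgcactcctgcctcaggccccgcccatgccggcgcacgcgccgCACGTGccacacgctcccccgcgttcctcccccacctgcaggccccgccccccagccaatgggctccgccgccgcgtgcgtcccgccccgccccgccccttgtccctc
In Bnip3 the letters match on both strands in overlap, from 108 bases before the start, and in Egln3 the single match begins 229 bases before it. The 5 letters were found in 16.4% of all windows, in 5 of 7 hypoxia-inducible genes and in 7 of 15 glycolysis genes with an entry. Hif1a (log2 0.19, -0.18 to 0.59), Ddit4 (log2 -0.11, -0.56 to 0.39) and Vegfa (log2 -0.08, -0.78 to 0.74) held the letters too.

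Interferon-stimulated genes lay on both sides. Ifitm2, a membrane protein that restricts virus entry, was at 2409 and 4671 CPM (log2 0.95, 0.86 to 1.05), just under 2-fold, and was detected in 68.6% and 95% of drawn cells. Slfn1, a Schlafen gene, was at 710.2 and 184 CPM (log2 -1.95, -2.20 to -1.71) and Isg15, a ubiquitin-like protein, at 51 and 40 UMIs (log2 -2.25, -2.89 to -1.62), but 82.4% of the control Isg15 UMIs lay in 5 cells. Of 31 listed genes only 11 reached 50 UMIs, with 4 higher and 7 lower. Of the 20 below that minimum, 15 had a lower and 5 a higher CPM in the JPI-289 library, mostly on a few UMIs each. Together these 20 held 136 UMIs (338 CPM) in the control, with 56.6% in 5 cells and 39 in 1 cell, against 162 UMIs (108 CPM) in the JPI-289 library, with 22.8% in 5 cells. The letters TTCNNTTTC were found before Isg15 and Ifitm2, 2 of 9 measured genes with an entry, and in 7.15% of all windows. For MHC class I, 3 of 7 genes were higher and 4 lower, none past 2-fold, with H2-D1 at 0.32 (0.19 to 0.44) and B2m at -0.18 (-0.47 to 0.12).

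Metallothioneins, which bind zinc and copper, were higher in the JPI-289 library. Mt1 was at 1018 and 3041 CPM (log2 1.58, 1.43 to 1.73) and Mt2 at 21 and 260 UMIs (log2 1.70, 1.09 to 2.45). Mt1 was found in 32.7% and 79.3% of drawn neutrophils. Red blood cells showed a Mt1 UMI in 12.3% and 55.8%, so Mt1 in free RNA differed between the libraries as well. With free RNA subtracted the ratio of Mt1 was 1.57, and that of Mt2 1.15. Of 15 antioxidant and metal-binding genes, 7 were higher and 8 lower, but 3 of the 7 (Srxn1, Prdx1 and Gclc) were at the level of free RNA. Srxn1, sulfiredoxin, had a ratio of 1.45 (0.70 to 2.40), with 147 JPI-289 UMIs where free RNA would give about 154. Prdx1, a peroxiredoxin, had 762 JPI-289 UMIs against about 857 from free RNA. Of the 2287 genes counted as higher across the whole table, 29 had at most 3 JPI-289 UMIs left with free RNA subtracted, with 1 each among the hypoxia-inducible and the heat shock genes. Hmox1, heme oxygenase 1, was lower (log2 -1.32, -1.72 to -0.90), with 56.0% of its control UMIs in 5 cells. Fth1, ferritin heavy chain, had a ratio close to 0 (log2 -0.08, -0.10 to -0.05), and Slc7a11, the cystine transporter, was at -0.53 (-0.72 to -0.33).

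Genes of the oxidative burst were within 2-fold. None of 7 NADPH oxidase genes was past 2-fold, from Cyba, a membrane subunit (log2 -0.72, -0.85 to -0.59), to Ncf1, a cytosolic subunit (log2 0.21, -0.03 to 0.47). Padi4, the enzyme that citrullinates histones in extracellular traps, was at 16 and 68 UMIs (log2 0.15, -0.61 to 1.07). Of 9 measured heat shock genes, 5 were higher and 4 lower, and Hspa5, a chaperone of the endoplasmic reticulum (log2 -1.04, -1.33 to -0.75), was past 2-fold. Of its control UMIs 46.1% lay in 5 cells, and with equal weight of each cell its ratio was -0.61, short of 2-fold.

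Of 12 genes of cell death and survival, 8 were lower and 4 higher, beside 60.8% of all genes higher. Bcl2a1a (log2 -1.89, -2.20 to -1.58) and Bcl2a1b (log2 -1.37, -1.55 to -1.19), survival genes of neutrophils that are near-identical copies and share reads, were past 2-fold, and the split between them is uncertain. Mcl1, the main survival factor of neutrophils, was at 3022 and 2648 CPM (log2 -0.19, -0.28 to -0.10). Bcl2l11, which promotes death, was at 0.98 (0.56 to 1.45). All 4 measured inflammasome and necroptosis genes were lower. They were Nlrp3, the sensor, at 608 and 334 CPM (log2 -0.87, -1.09 to -0.64), its adaptor Pycard (log2 -0.24, -0.57 to 0.11), the caspase gene Casp4 (log2 -1.24, -2.07 to -0.34) and the pore-forming gasdermin gene Gsdmd (log2 -1.04, -1.77 to -0.24), the last pair on 20 and 24 control UMIs. With equal weight of each cell Casp4 had a ratio of -0.94, and with a higher minimum of UMIs per cell Gsdmd had -0.98, both short of 2-fold.

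Lipid mediator genes, with 2 of 5 higher and 3 lower, lay on both sides. Alox5ap, which hands arachidonate to 5-lipoxygenase, was at 4217 and 5847 CPM (log2 0.47, 0.40 to 0.55), and Ptgs2, cyclooxygenase 2, at 263 and 99.8 CPM (log2 -1.40, -1.77 to -1.03). Of 21 immediate early genes, 14 were lower and 7 higher, beside 60.8% of all genes higher. Fosb (log2 -2.57, -3.19 to -1.99), Egr2 (log2 -1.79, -2.62 to -0.97) and Csrnp1, at 215 and 379 UMIs (log2 -1.08, -1.33 to -0.83), were past 2-fold on the lower side and Egr3 (log2 1.05, 0.31 to 1.97) on the higher side, the last short of 2-fold when centred (0.86). With free RNA subtracted the ratio of Fosb was -3.49. The abundant Junb was at -0.27 (-0.36 to -0.19) and Fos at -0.56 (-0.73 to -0.38). Such genes also respond to tissue dissociation, whose part was not tested. The AP-1 letters TGACTCA were found before 1 of 18 of these genes, Csrnp1, against 4.47% of all windows.

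RNA of the drug's target was hardly seen in these cells, and its protein was not measured in them. Parp1, which encodes the main PARP enzyme, had 0 UMIs in the control, which allows up to 3 counts or 7.45 CPM, and 2 UMIs in the JPI-289 library. Of 22 genes of the PARP and NAD list, 6 reached 50 UMIs, and Tiparp, a mono-ADP-ribosyltransferase, was the most abundant at 268 and 196 CPM (log2 -0.46, -0.78 to -0.12). Parp4 (log2 -1.12, -1.96 to -0.21) and Bst1, an NAD-consuming surface enzyme (log2 -1.09, -1.56 to -0.60), were past 2-fold on the lower side, but Parp4 had a ratio of -0.94 with equal weight of each cell, short of 2-fold, so the count of 2 rests on it. Of 8 p53 target genes, Trp53inp1 (log2 1.21, 0.81 to 1.66) was past 2-fold on the higher and Ccng1 (log2 -1.21, -1.90 to -0.48) on the lower side. With free RNA subtracted the ratio of Ccng1 was -2.21. Cdkn1a, the cell cycle inhibitor p21, was at -0.49 (-0.70 to -0.28). None of 8 myeloid regulators (7 transcription factors and Padi4) was past 2-fold, with Cebpb at 6588 and 6538 CPM (log2 -0.01, -0.07 to 0.05) and Spi1, which encodes PU.1, at 0.45 (0.27 to 0.63). Siglecf-type genes, which mark a long-lived neutrophil state of injured and cancerous tissue, were scarce, with Siglecf at 3 and 14 UMIs and Cd274, which encodes PD-L1, at 8 and 66 UMIs (log2 1.07, 0.08 to 2.41, and 0.60 with the rule genes at 1% of UMIs or more).

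Across all genes, those whose interval lay farthest above 0 included Ngp and Camp. Wdr26, a subunit of a ubiquitin ligase, was at 117 and 619 CPM (log2 2.39, 1.98 to 2.86), Rasa2, a Ras inhibitor, at 149 and 673 CPM (log2 2.16, 1.80 to 2.58), and Rflnb, a filamin regulator, at 246 and 1051 CPM (log2 2.09, 1.80 to 2.40). Arrdc4, an arrestin domain gene, was at 186 and 817 CPM (log2 2.12, 1.80 to 2.49) and Zfp52, a zinc finger gene, at 10 and 316 UMIs (log2 3.01, 2.18 to 4.16). Wdr26 was found in 7.69% and 44.8% of drawn cells and Rflnb in 20.5% and 54.6%, so these differences were spread over many cells. Appbp2, B230208H11Rik and Gm45716 were also among them, with at most 9 control UMIs each. Pdk4 and Ccn2 were at the level of free RNA, with 187 and 97 JPI-289 UMIs where free RNA would give about 237 and 82.9. The ratio of Pdk4 was 4.33 (2.77 to 7.70), and with free RNA subtracted no UMIs were left in either library to take one.

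Farthest below 0, beside Egln3 and Bnip3, stood Siglece, an inhibitory sialic acid receptor, at 126 and 66 UMIs (log2 -2.83, -3.29 to -2.39), and 1600010M07Rik at 65 and 27 UMIs (log2 -3.15, -3.87 to -2.50). Siglece was found in 26.9% and 4.44% of drawn cells. Smim4 was at 41 and 15 UMIs. Several others in this group rest on few cells. Plvap and Ly6c1, endothelial genes, came from a single control cell with 99 and 65 UMIs. Saa3, an acute phase protein, had a ratio of -2.36 (-2.63 to -2.09), but with the rule markers at 5% of UMIs or more it was 0.29. Of its control UMIs 96.7% lay in 5 cells, and for F13a1, a monocyte gene, 98%. Pck1, Slc27a2 and Pdzk1ip1 are tubule genes, whose free RNA would give about 312, 77.2 and 40.6 control UMIs of 287, 86 and 37.

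Neutrophils of 1 library differed among themselves in chemokine and granule RNA. In cells drawn to 1000 UMIs, Cxcl2 ran up to 83 UMIs in the control against 95 in the JPI-289 library, with medians of 21 and 16. Over cells, Cxcl2 varied with Il1b, with a Spearman correlation of 0.60 over 156 control and 0.61 over 540 JPI-289 cells, and with Nfkbia (0.42 and 0.52). The summed chemokine and NF-kB regulator lists gave 0.53 and 0.61. Ngp ran the other way, at -0.25 and -0.47 with Cxcl2 and -0.28 and -0.52 with Il1b. Chil3 differed between the libraries in this respect, with a correlation to Cxcl2 of 0.33 in the control against -0.19 in the JPI-289 library, and to Ngp of -0.16 and 0.29. The cells of a correlation share 1 library and the counts of a cell share 1 total.

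**Figure D4:**
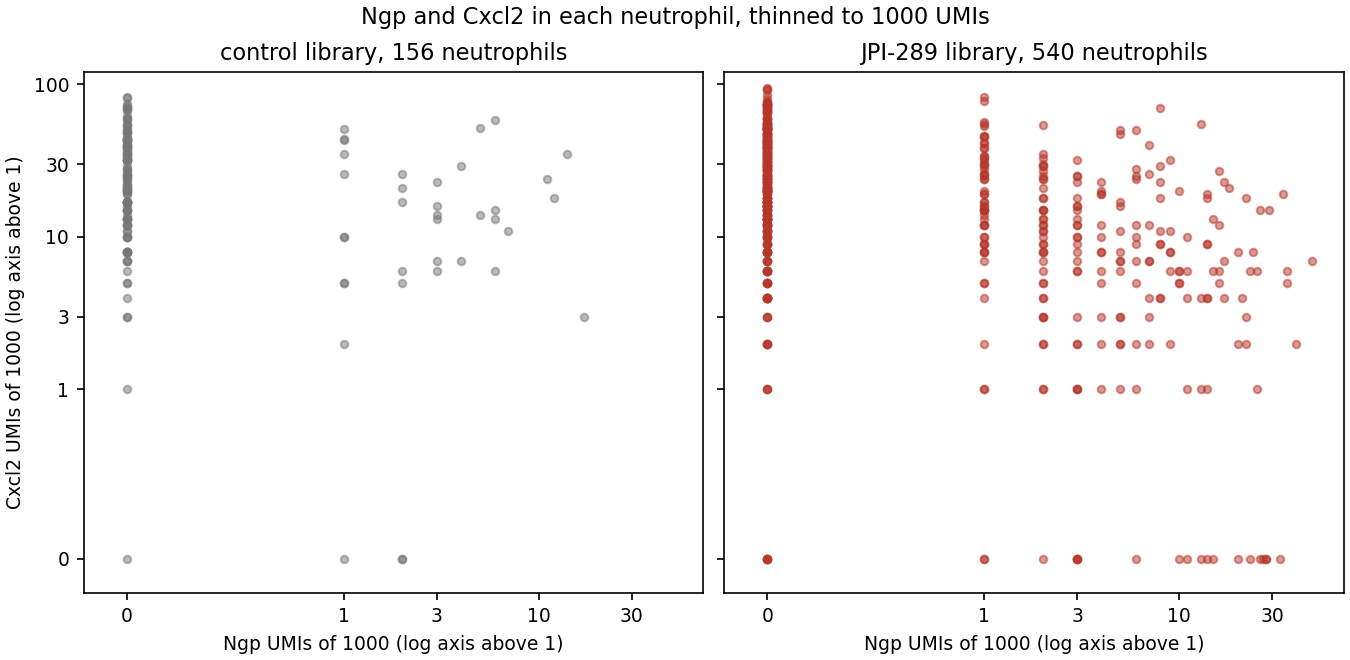
Ngp (x axis) and Cxcl2 (y axis) UMIs in each neutrophil of the control (left, 156 cells) and the JPI-289 library (right, 540 cells) after each cell was drawn to 1000 UMIs; axes are logarithmic above 1 and points with equal counts overlap. In the JPI-289 library the cells with many Ngp UMIs tend to have few Cxcl2 UMIs (Spearman correlation -0.47, against -0.25 in the control), and more cells have an Ngp UMI (45.9%, against 23.7%).

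Cells with and without an Ngp UMI were compared within each library. Control cells with Ngp, 37 in number, had a mean of 18.1 Cxcl2 UMIs of 1000 and the other 119 a mean of 28.6. In the JPI-289 library, the means were 14.0 in 248 and 29.0 in 292 cells. Il1b followed with 6.03 and 10.7 in the control against 3.79 and 9.26 in the JPI-289 library. Lcn2 and Alox5ap were instead higher in cells with Ngp, at 8.22 against 4.55 and 5.81 against 3.71 in the control, and at 6.19 against 3.61 and 6.85 against 3.57 in the JPI-289 library. Cxcl2, Il1b, Lcn2 and Alox5ap thus differed in the same direction in both libraries. Chil3 did not, with means of 3.62 with and 5.58 without Ngp in the control, against 1.29 and 0.709 in the JPI-289 library. A cell without an Ngp UMI at this depth can still hold the RNA.

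The gene differences between libraries were then taken within each of these groups of cells. The groups with Ngp were not matched for its level between the libraries. Before drawing, 456 Ngp UMIs lay in 46 control cells and 6958 in 292 JPI-289 cells. The part of this mismatch in the ratios below was not tested. Without an Ngp UMI, Cxcl2 had a log2 ratio of 0.02 (-0.04 to 0.08) and with one -0.37 (-0.49 to -0.25), so the ratio of Cxcl2 lay close to 0 in the cells without Ngp. For Cxcl3 the ratio was -0.54 (-0.65 to -0.44) without and -2.20 (-2.40 to -2.00) with Ngp. Chil3 was lower in both groups, at -2.97 (-3.21 to -2.75) and -1.49 (-1.78 to -1.19), as were Ccl6 at -2.12 (-2.35 to -1.89) and -2.36 (-2.63 to -2.09), Selplg at -2.02 (-2.51 to -1.55) and -2.01 (-2.54 to -1.46) and Ier3 at -1.21 (-1.38 to -1.03) and -2.12 (-2.47 to -1.76). Mt1 at 1.46 (1.24 to 1.70) and 1.26 (0.80 to 1.81) and Ifitm2 at 1.03 (0.84 to 1.23) and 0.98 (0.68 to 1.31) were higher in both. The direction of these 6 genes was thus the same in cells with and without an Ngp UMI. Alox5ap, higher over all neutrophils, had a ratio of -0.06 (-0.22 to 0.11) without and 0.23 (0.03 to 0.45) with Ngp.

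Against the other myeloid cells of the same kidneys, the genes highest in neutrophils relative to macrophages were, beside the rule genes, Acod1, which makes itaconate, G0s2, Hdc, Ngp and Stfa1, a cystatin of neutrophils. Acod1 stood at 896 and 1224 CPM in neutrophils and at 0 and 1.79 CPM in macrophages. Relative to C1q-negative monocyte-type cells the list also held Asprv1, a protease gene, and Stfa2l1, and left out G0s2 and S100a8. Asprv1, at 815 and 182 CPM in neutrophils (log2 -2.16, -2.40 to -1.92), and Stfa2l1, at 1227 and 576 CPM (log2 -1.09, -1.25 to -0.93, but -0.85 with equal weight of each cell), were lower in the JPI-289 library. The control Asprv1 UMIs lay to 44.5% in 5 cells. Stfa1 and Stfa2l1 are near-identical copies whose split is uncertain.

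Several genes differed between the libraries in the same direction in other myeloid cells. Mt1 had ratios of 2.24 (2.17 to 2.31) in macrophages and 2.13 (1.98 to 2.28) in monocyte-type cells, Zfp52 3.47 (2.58 to 4.64) and 4.20 (3.07 to 5.98), and Arrdc4 3.04 (2.51 to 3.66) and 3.22 (2.62 to 3.95). On the lower side, Selplg had -1.73 (-2.35 to -1.19) and -2.73 (-3.57 to -2.03), Chil3 -2.27 (-2.62 to -1.94) and -1.43 (-1.54 to -1.33), and Aldoa -1.83 (-2.09 to -1.58) and -1.15 (-1.43 to -0.88). The same direction was thus seen in all 3 kinds of cell for these 6 genes.

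Other genes had ratios closer to 0 in those cells. Ccl6 had -0.52 (-0.65 to -0.40) in macrophages and -0.23 (-0.38 to -0.09) in monocyte-type cells against -2.12 (-2.22 to -2.02) in neutrophils. Ier3 had -0.17 (-0.29 to -0.05) and -0.09 (-0.24 to 0.07) against -1.55 (-1.65 to -1.45), and Rasa2 -0.40 (-1.15 to 0.31) and 0.40 (-0.44 to 1.30) against 2.16 (1.80 to 2.58). Tnf went the other way in macrophages, at -1.56 (-1.97 to -1.18). With 1 library per treatment no difference between kinds of cell was tested, and macrophages (109 and 131 cells) and monocyte-type cells (41 and 60) were fewer than neutrophils.

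**Figure D5:**
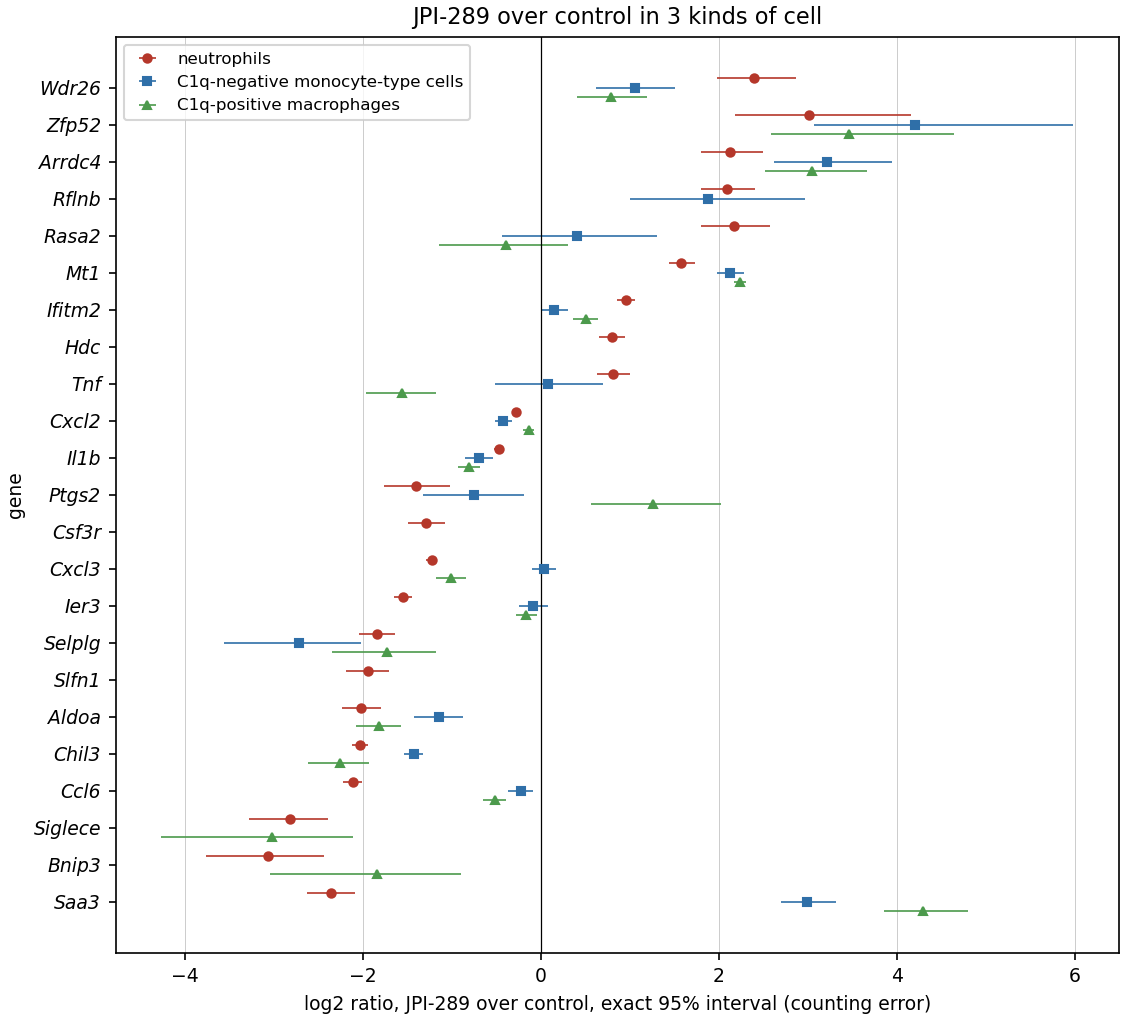
Log2 ratio of JPI-289 over control with exact 95% intervals (counting error only) for 23 genes in neutrophils, C1q-negative monocyte-type cells and C1q-positive macrophages; a point is drawn where the gene had at least 50 UMIs in that kind of cell. Zfp52, Arrdc4 and Mt1 lie right of 0 and Selplg, Aldoa and Chil3 left of 0 in all 3, while Ccl6 and Ier3 lie past 2-fold to the left in neutrophils alone and Saa3 lies left in neutrophils and right in the other kinds.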

How the data were processed

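The deposited files hold raw UMI counts per gene and barcode, which the authors made from 5′ single-cell libraries. The submitters' processing notes name Cell Ranger 5.0.1 and mm10, while the headers of the deposited count matrices name an older release. The matrices hold all barcodes, before any cell filter, and list 32285 genes. Cells, members and comparison cells were taken by the limits given in the report. The members and gene lists were chosen with earlier results of these data known, and no list or cell kind is independent of them.

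Counts were summed over the neutrophils of each library. The log2 ratio was taken with 0.5 UMI added to each sum, for genes with at least 50 UMIs in both libraries together. At unequal depth this addition lowers the ratio of genes with few UMIs, and 44 of the 3764 genes had a ratio below 0 with a higher CPM in the JPI-289 library. With free RNA subtracted, no ratio was taken for 60 genes left with at most 3 UMIs in each library. Intervals were exact (Poisson for CPM, Clopper-Pearson for shares, binomial for ratios) and cover counting error only. The study tested over cells, which would treat cells of 1 mouse as replicates, so no test was made here. Detection was read in cells drawn at random, without replacement, to 1000 UMIs with a fixed seed. Free RNA was profiled in barcodes under 100 UMIs and scaled by proximal tubule markers. No doublet caller was run. Alternatives left out the 5% of cells with most UMIs and cells with markers of other lineages, and leaving out cells with 5 or more UMIs of endothelial markers was chosen after seeing the data. Others changed the limits of the rule, the total, the centring and the gene minimum.

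Genes were named by a rule. They were the 5 cell markers, in each list the 3 members with most UMIs and the 2 with the most extreme ratios in each direction, the 12 genes per direction whose interval lay farthest from 0, the 10 with most UMIs, a set of 11 neutrophil and PARP genes, and the 8 with the highest level relative to macrophages and to monocyte-type cells. Adam8, Ccl4, Csrnp1, Ddit4, Ero1l, Fos, Fpr1, Gclc, Itgb2l, Mmp8, Nfkb2, Osm, Pgk1, Prdx1, Slc7a11, Srxn1, Tlr4, Tnfaip3 and Wfdc21 were added after their values were seen. Some genes that the rule names are not reported here. Gene positions are from GENCODE vM21. Promoter windows are from a RefSeq table (GRCm38.p6), in which 7 of 9 chemokines, 7 of 9 cytokines, 11 of 13 NF-kB regulators, 7 of 10 hypoxia-inducible, 15 of 16 glycolysis, 9 of 11 interferon-stimulated and 18 of 21 immediate early genes had an entry. Gene counting was not described for near-identical copies, so values of Bcl2a1a, Bcl2a1b, Stfa1 and Stfa2l1 are uncertain. The scripts were tested on simulated data and ran in Python 3.11.15 with numpy 2.4.6, scipy 1.17.1, pandas 2.3.3 and matplotlib 3.10.9.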

Additional observations from a re-analysis of the deposited data

Results flagged for a closer look

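Barcodes with 300 to under 1000 UMIs, below the depth limit, were not used, yet 97 of them in the JPI-289 library and 21 in the control met the rest of the neutrophil rule. Their other neutrophil markers summed to 7824 CPM in the JPI-289 library and 6994 CPM in the control.

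Saa3, an acute phase protein gene, had a log2 ratio of -2.36 in neutrophils but 4.29 in C1q-positive macrophages and 2.99 in C1q-negative monocyte-type cells, opposite directions that were not tested against each other. Of the control Saa3 UMIs in neutrophils, 96.7% lay in 5 cells. Ptgs2, cyclooxygenase 2, had a log2 ratio of -1.40 in neutrophils and 1.26 in macrophages, and this difference was not tested either.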

How the results depend on the processing

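Both shares depended on the limits of the rule. With at least 500 UMIs per cell the neutrophil share was 2.68% in the control kidney, against 9.39% after JPI-289, with the 3 rule genes at 5% of UMIs or more it was 4.04% and 10.9%, and with at most 20% mitochondrial UMIs the JPI-289 share was 14.99%. It stayed higher in the JPI-289 library under each limit tried. The number of genes at least 2-fold higher was 263 with the ratios centred on their median, 720 with a minimum of 20 UMIs per gene and 101 with 200 UMIs. The number at least 2-fold lower was 627 with 20 UMIs and 48 with 200 UMIs. Of 2934 repeated ratios of genes named by the rule, 2707 stayed within the interval of the value given, 226 left it, and 1 of a gene past 2-fold changed sign, Saa3 with the rule genes at 5% or more (0.29). With free RNA subtracted, 10 of these genes, Pdk4 among them, could not be given a ratio, and of all genes 545 were at least 2-fold higher and 307 lower, of which 95 and 38 had at most 3 UMIs left in the lower library. The cause of these moves was not tested. Without the single control cell rich in endothelial markers, 415 genes were at least 2-fold higher and 224 lower. The control sums hold 402700 UMIs, so that a ratio of a gene with few UMIs has a wide interval. No paired analysis was possible because each treatment has 1 library.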
